A study of Mus musculus with 12 samples.

Results

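Mouse splenic B cells carrying a mutant form of the transcription factor E12 were compared with cells carrying wild-type E12, both after activation through the antigen receptor with an antibody against IgM. The members are the 6 of 12 arrays whose titles name anti-IgM treatment, 3 with mutant E12 and 3 with wild-type E12, and the comparison covers every detected probe. The remaining 6 arrays, 3 of each form without anti-IgM, are used to show where the difference between the forms was of another size in untreated cells.

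All 4 groups came from 8-week-old C57BL/6 mice in which 1 copy of the E2A gene was deleted, so the cells kept the other endogenous copy. Every group's B cells had been activated for 14 h by interleukin 4 at 5 ng/ml together with CD40 ligand at 200 ng/ml. They were infected during 2 incubations of 12 h, in medium that also held lipopolysaccharide (200 ng/ml), and were left for a further 22 h before anti-IgM was added to the treated groups. The retrovirus carried GFP and either E12 form, and infected cells were sorted by green fluorescence. The treated groups then had F(ab')2 anti-IgM at 2.5 μg/ml for 3 h. The labels do not name the mutation. No group infected with a virus lacking E12 was analysed here, so a difference between the forms does not show which form departed from cells without added E12. The labels do not say whether replicates came from separate mice or cultures, so the p-values measure only the spread between these arrays, which may be technical.

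E12 and E47 are splice products of the E2A gene, named Tcf3 in mouse. They are basic helix-loop-helix proteins that bind E-box sequences of DNA as dimers, are held off DNA by the Id proteins, and are needed for B cell development and for class switching. Antigen receptor signalling raises calcium in the cell, and calcium-loaded calmodulin is known to bind the basic region of E proteins and to block their DNA binding. The same signalling induces immediate early genes, MYC, growth and cytokine genes, and it is limited by inhibitory coreceptors such as CD72, CD22 and the Fc receptor FcγRIIb.

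A fixed scale is used throughout. Levels are log2(intensity + 50) after the 12 arrays had been quantile-normalized together, and a difference is the mutant mean minus the wild-type mean, in log2 units, with its standard error and n = 3 per group. Adjusted p-values are from limma, Benjamini-Hochberg adjusted over all 19715 detected probes, with a threshold of 0.05, and "higher", "lower" or "differed" in a count means past it. Each gene is counted by its brightest probe, which gave 10050 genes. The deposited values of the wild-type and the mutant arrays had been normalized as separate sets, so E12 form and normalization set cannot be told apart. After anti-IgM, arrays of 1 form correlated at r = 0.979 to 0.997 over the brightest probes of the 10050 genes and arrays of different forms at 0.922 to 0.951. Of the B cell markers Cd79b, Ms4a1, Cd74 and Fcer2a, all 4 were detected. Pax5 was below the limit of detection.

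The retroviral gene itself was higher in the mutant cells. Tcf3 read 11.27, 12.79 and 12.54 on the mutant arrays against 11.17, 10.45 and 10.34 on the wild-type arrays. Mutant replicate 1 lay just above wild-type replicate 1, and the other mutant arrays lay well above all wild-type arrays. The difference was 1.55 ± 0.35 log2 units (adjusted p = 0.00302), a 2.92-fold higher mean, and it was 1.68 in untreated cells. The probe reads endogenous and viral transcript together where both hold its sequence, and every difference below therefore compares cells that differ in E12 form and in Tcf3 signal. The part of the Tcf3 level in those differences was not tested.

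Sequences are shown where they bear on the genes that stand out below. Mir17hg, the host gene of the miR-17 cluster, was among the 12 genes furthest below wild-type, with clone-like symbols left out here and below. The array reads the host transcript and not the mature miRNAs, which are printed to show what the locus encodes. They lie on chromosome 14 of GRCm38.p6, plus strand, between positions 115043684 and 115044496 in RefSeq, and capitals mark the seed, bases 2 to 8.
mmu-miR-17-5p: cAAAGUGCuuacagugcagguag
mmu-miR-18a-5p: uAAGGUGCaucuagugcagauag
mmu-miR-19a-3p: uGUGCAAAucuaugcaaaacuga
mmu-miR-20a-5p: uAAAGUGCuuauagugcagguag
mmu-miR-19b-3p: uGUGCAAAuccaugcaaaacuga
mmu-miR-92a-3p: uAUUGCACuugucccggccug
The seed of miR-17-5p is also that of miR-20a-5p, and the seed of miR-19a-3p is also that of miR-19b-3p.

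The 250 bases before the RefSeq start of 4 genes are printed next, with motifs in capitals. Oosp1, the gene furthest above wild-type, is shown for its 2 copies of the E-box CACCTG. Dusp2 and Nop2, both lower in the mutant cells, are shown for the E-box CACGTG, which MYC and MAX bind. Ankrd37, which is induced by hypoxia, is shown for ACGTG, the core of the element that hypoxia-inducible factors bind. The positions are those of GRCm38.p6: Oosp1 at chr19:11691052-11691301, minus strand, Dusp2 at chr2:127335909-127336158, plus strand, Nop2 at chr6:125131633-125131882, plus strand, and Ankrd37 at chr8:45999851-46000100, minus strand.
Oosp1: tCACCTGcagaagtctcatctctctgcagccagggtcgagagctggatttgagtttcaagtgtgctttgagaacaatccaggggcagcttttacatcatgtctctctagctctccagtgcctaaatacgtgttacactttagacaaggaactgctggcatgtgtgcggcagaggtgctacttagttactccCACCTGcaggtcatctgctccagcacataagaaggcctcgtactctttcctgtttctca
Dusp2: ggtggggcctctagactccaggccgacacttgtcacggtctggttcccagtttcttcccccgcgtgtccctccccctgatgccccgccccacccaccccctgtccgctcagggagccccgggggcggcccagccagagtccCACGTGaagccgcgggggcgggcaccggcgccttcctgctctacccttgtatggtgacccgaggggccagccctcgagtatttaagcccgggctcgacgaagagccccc
Nop2: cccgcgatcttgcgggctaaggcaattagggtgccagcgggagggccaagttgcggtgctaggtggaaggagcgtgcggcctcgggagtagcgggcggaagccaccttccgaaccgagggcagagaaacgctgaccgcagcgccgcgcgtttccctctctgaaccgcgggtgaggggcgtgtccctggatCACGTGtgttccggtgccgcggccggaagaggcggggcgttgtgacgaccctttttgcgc
Ankrd37: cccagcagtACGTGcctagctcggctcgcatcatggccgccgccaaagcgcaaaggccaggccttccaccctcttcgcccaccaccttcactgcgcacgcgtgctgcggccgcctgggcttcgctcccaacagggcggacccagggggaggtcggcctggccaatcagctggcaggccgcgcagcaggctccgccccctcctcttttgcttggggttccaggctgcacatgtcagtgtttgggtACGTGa
A match is a description of these letters, and binding was not measured.

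Many genes differed between the forms after anti-IgM. With mutant E12, 2123 genes (21.1% of 10050) were higher and 2222 (22.1%) lower, which makes 4345 (43.2%) past the threshold and 5104 (50.8%) at an unadjusted p under 0.05. Counted by probe, 7907 of 19715 (40.1%) passed. Differences of at least 1 log2 unit were found in 601 higher genes (5.98%) and 551 lower genes (5.48%), and of at least 2 log2 units in 77 (0.766%) and 44 (0.438%). The 3 arrays of each form did not overlap in 5840 genes (58.1%). The share of higher genes among those called rested on the scaling. It was 48.9% after joint quantile normalization, 67.3% in the values as deposited (3163 higher, 1535 lower) and 32.1% with each array scaled to its 75th percentile (1586 higher, 3348 lower). The median difference of all genes was -0.01, 0.11 and -0.16 log2 units in these scalings, and the gene group medians below are to be read against it, as the counts of each group are against the 21.1% higher and 22.1% lower. Without mutant replicate 1, the array with the lowest Tcf3 of its group, 3868 genes passed, 1895 higher and 1973 lower.

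Cd63, Cd72 and Dusp2 were among the 12 genes furthest below wild-type. Only genes whose groups did not overlap could enter the 12 of either sign. Cd63, a tetraspanin of late endosomes and lysosomes, read 7.40, 7.20 and 7.22 on the mutant arrays against 11.44, 11.55 and 11.60 on the wild-type arrays. Every mutant array was far below every wild-type array, by -4.25 ± 0.19 log2 units (adjusted p = 5.36e-08), or 19.1-fold, at this brightest probe. The other Cd63 probes gave smaller differences, -2.41 and -2.52, both past the threshold. Cd72, an inhibitory coreceptor of B cells, read 10.91, 10.35 and 10.96 on the mutant arrays against 13.82, 13.96 and 13.78 on the wild-type arrays. The groups were again far apart, by -3.11 ± 0.27 log2 units (adjusted p = 1.63e-06). Dusp2, a nuclear phosphatase that switches off MAP kinases, read 10.34, 10.49 and 10.37 on the mutant arrays against 13.61, 13.22 and 12.85 on the wild-type arrays. Its wild-type arrays were the more spread, yet all stood above the mutant arrays, and the difference was -2.82 ± 0.19 log2 units (adjusted p = 2.26e-07).

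Of the other 9 genes in the lowest 12, Hivep3, a zinc finger protein, differed by -3.03 ± 0.34 log2 units (adjusted p = 1.22e-05) and Lbh, a transcription cofactor, by -2.91 ± 0.23 log2 units (adjusted p = 7.74e-07). At their other probes Hivep3 gave -0.88 and -0.69 and Lbh -2.72, all past the threshold. Mir17hg read 7.30, 7.13 and 7.55 on the mutant arrays against 10.10, 9.83 and 9.79 on the wild-type arrays, so that no mutant array came within 2 log2 units of a wild-type array, and the difference was -2.58 ± 0.19 log2 units (adjusted p = 4.74e-07). The mutant arrays were also lower in Dpp7, a peptidase of quiescent lymphocytes (-2.78), in Ppargc1b, a coactivator of mitochondrial genes (-2.66), in Eno2, an enolase (-2.64), and in Marcksl1, an actin-binding protein (-2.49). Ccdc144b (-2.84) was above the limit of detection on 1 of 3 mutant arrays, so its difference is compressed. Myo1e, a class I myosin, differed by -2.53 at its brightest probe, with -1.08 and -0.01 at its other detected probes.

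**Figure D1:**
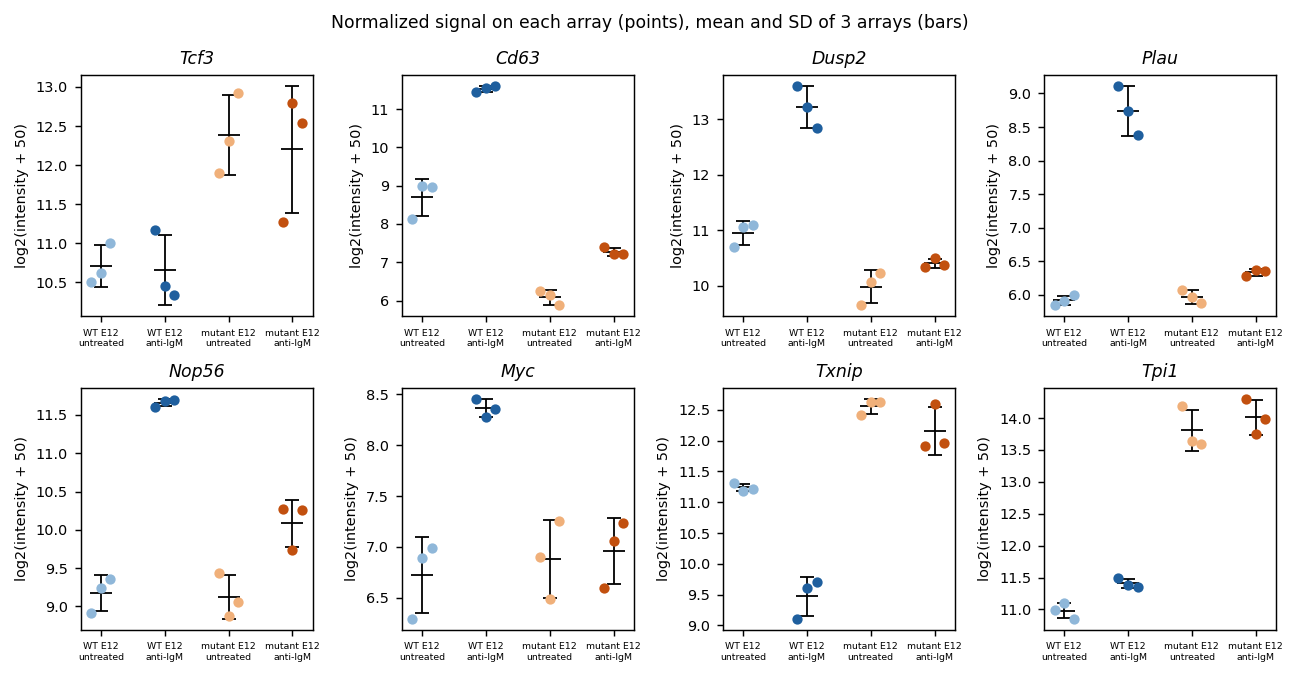
Normalized level of 8 genes on each of the 12 arrays, in log2(intensity + 50), with a panel per gene, 4 groups on the horizontal axis, points for arrays and bars for the mean and SD of 3 arrays. The wild-type arrays after anti-IgM stand above all other arrays in Cd63, Dusp2, Plau, Nop56 and Myc and below all others in Txnip, while Tcf3 and Tpi1 separate by E12 form.

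Oosp1, Sla and Ctla4 were among the 12 genes furthest above wild-type. Oosp1, known as an oocyte secreted protein, read 11.10, 11.12 and 10.80 on the mutant arrays against 8.05, 7.60 and 7.56 on the wild-type arrays. Its lowest mutant array stood far above its highest wild-type array, and the difference was 3.27 ± 0.21 log2 units (adjusted p = 1.71e-07), or 9.65-fold. Sla, which encodes the SLAP adaptor that dampens antigen receptor signalling, read 10.55, 11.30 and 11.11 on the mutant arrays against 8.39, 7.74 and 7.74 on the wild-type arrays. The mutant arrays were all higher, by 3.03 ± 0.25 log2 units (adjusted p = 1.08e-06). The other Sla probes gave 1.53 and 1.67, both past the threshold. Ctla4, an inhibitory receptor best known on T cells, read 9.64, 10.04 and 10.02 on the mutant arrays against 7.85, 6.89 and 6.71 on the wild-type arrays. Wild-type replicate 1 was the highest of its group, still below each mutant array, and the difference was 2.75 ± 0.38 log2 units (adjusted p = 6.91e-05).

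Egln3, Ankrd37 and Txnip, all of the highest 12, are linked to low oxygen or sugar supply. Egln3, a prolyl hydroxylase that marks hypoxia-inducible factors for decay, was higher by 3.07 ± 0.34 log2 units (adjusted p = 1.28e-05) and Ankrd37 by 2.81 ± 0.15 log2 units (adjusted p = 5.58e-08). Txnip, which limits glucose uptake, read 11.91, 12.60 and 11.96 on the mutant arrays against 9.11, 9.61 and 9.70 on the wild-type arrays. No mutant array was within 2 log2 units of a wild-type array, and the difference was 2.68 ± 0.19 log2 units (adjusted p = 2.55e-07). Abi3, an actin regulator, differed by 3.10 ± 0.18 log2 units (adjusted p = 8.22e-08), and by 0.65 at its other, dim probe, past the threshold. The rest of the highest 12 were Tg, the thyroglobulin gene (3.03), Ly6c1 (2.97), Edem2, of protein disposal in the endoplasmic reticulum (2.87), Gimap7, a lymphocyte GTPase (2.68), and Myl4, a myosin light chain (2.65). Ly6c1 has a near-identical neighbour, Ly6c2, and the probe may read both.

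**Figure D2:**
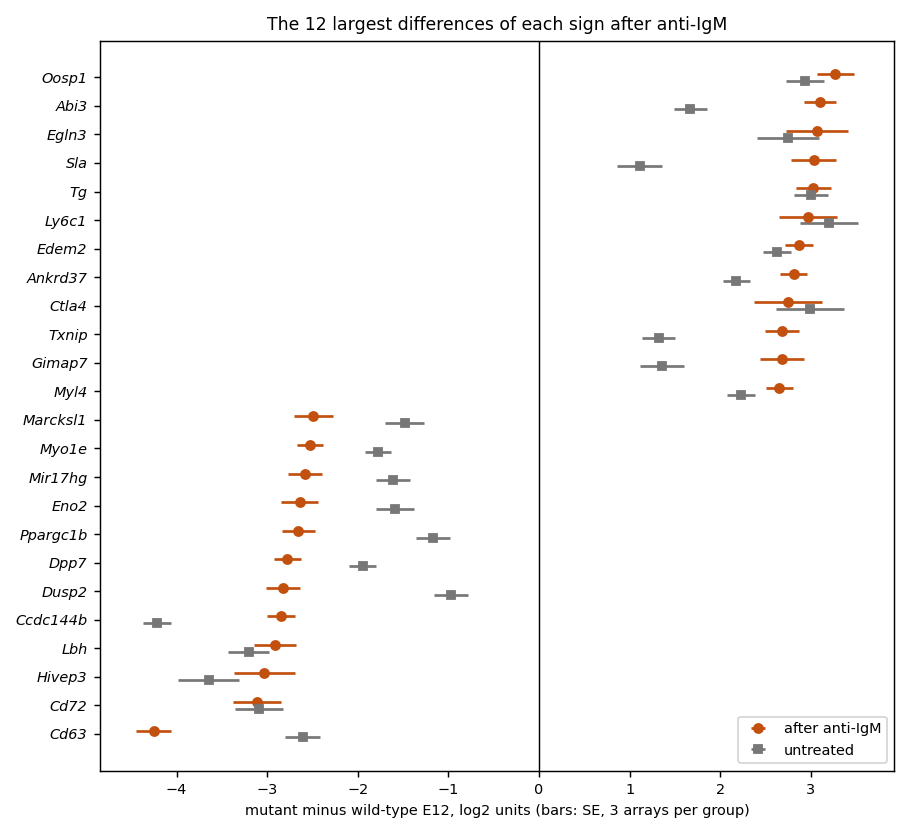
Difference between mutant and wild-type E12 in log2 units, horizontal axis, for the 12 genes of each sign with the largest differences after anti-IgM, with points for the fitted difference after anti-IgM (circles) and in untreated cells (squares) and bars for the standard error from 3 arrays per group. Cd63, at -4.25, is furthest below 0 after anti-IgM, and Oosp1, at 3.27, furthest above it. Clone-like symbols were left out.

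E proteins and their partners were called about as often as all genes, of which 21.1% were higher and 22.1% lower. Of 15 detected genes of this group, 3 were higher and 4 lower, with a median of 0.08. In the values as deposited there were 6 higher, 1 lower and a median of 0.13, and with 75th percentile scaling 2 higher, 5 lower and a median of -0.11. Tcf4, which encodes the E protein E2-2, was at 11.02, 11.36 and 11.44 on the mutant arrays and at 12.49, 12.38 and 12.37 on the wild-type arrays. The groups did not overlap, with a difference of -1.14 ± 0.18 log2 units (adjusted p = 2.10e-04), which did not pass in the values as deposited (-0.27, adjusted p = 0.272). Tcf12, which encodes the E protein HEB, was at 0.17 (adjusted p = 0.411). Bhlhe40, a repressor with a helix-loop-helix, was lower (-1.55), and Hes1, a repressor downstream of Notch, was higher (0.77, not past the threshold with 75th percentile scaling). Of the inhibitory Id genes, Id2 was lower (-0.70 ± 0.18 log2 units (adjusted p = 0.00619)), with -0.24 at its other probe and no call in the values as deposited (-0.37, adjusted p = 0.101), and Id3 was at -0.36 (adjusted p = 0.205), past the threshold with 75th percentile scaling (-0.64, adjusted p = 0.0216) and with array weights (-0.53, 0.0118). Id1 was below the limit of detection.

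Genes tied to E2A in B cells held both directions. Of 27 detected, 5 were higher and 10 lower (median -0.13), against 10 higher and 7 lower in the values as deposited. Vpreb3, a partner of surrogate and light chains, read 12.18, 11.78 and 11.58 on the mutant arrays against 9.65, 9.43 and 9.36 on the wild-type arrays. All mutant arrays were well above the wild-type arrays, by 2.37 ± 0.16 log2 units (adjusted p = 2.03e-07). Ebf1, the factor that acts with E2A in early B cells, read 7.13, 7.23 and 7.36 on the mutant arrays against 8.02, 7.63 and 7.78 on the wild-type arrays. Here the mutant arrays were the lower, by -0.57 ± 0.13 log2 units (adjusted p = 0.00390). Blk, a Src family kinase, was lower (-1.51 at the brightest probe, -0.82 and -0.18 at its other probes), as were Irf8 (-1.47), a factor of germinal centre B cells, and Gfi1 (-1.45), a zinc finger repressor.

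Cd79b, the signalling chain of the antigen receptor, read 13.80, 13.43 and 13.29 on the mutant arrays against 13.47, 13.37 and 13.24 on the wild-type arrays, and the groups overlapped. Its difference was 0.15 ± 0.14 log2 units (adjusted p = 0.439), while its other probe gave 0.75 (adjusted p = 0.00142) and the brightest probe gave 1.15 in the values as deposited (adjusted p = 2.14e-05).

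Among antigen receptor signalling genes, 6 of 34 were higher and 15 lower (median -0.36). In the values as deposited the balance turned, with 9 higher, 6 lower and a median of 0.13; with 75th percentile scaling there were 7 higher, 14 lower and a median of -0.28. Besides Cd72 and Blk, the named members were 2 that were higher. Fcgr2b, the inhibitory Fc receptor of B cells, read 11.40, 11.24 and 10.93 on the mutant arrays against 9.70, 9.14 and 9.42 on the wild-type arrays. Each mutant array exceeded each wild-type array, and the difference was 1.77 ± 0.22 log2 units (adjusted p = 3.12e-05). Dapp1, an adaptor that binds phosphoinositides, differed by 1.53 ± 0.15 log2 units (adjusted p = 3.75e-06), and by 0.33 at its other, dim probe, past the threshold. The inhibitory receptors Cd72 and Fcgr2b thus stood on opposite sides. In untreated cells 24 of the 34 group members were lower and 3 higher, with a median of -0.68. The interaction was positive and past the threshold for 6 members and negative for 0.

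Calcium, calmodulin and NFAT genes gave 8 higher and 6 lower of 29, where 21.1% and 22.1% of all genes were. Their median was -0.13, with 0.30 in the values as deposited and -0.05 with 75th percentile scaling. Ppp3cc, a catalytic subunit of calcineurin, was higher (1.63 ± 0.16 log2 units (adjusted p = 4.00e-06)), and so was Itpr3, a calcium release channel (1.24 ± 0.23 log2 units (adjusted p = 6.06e-04)). Nfat5, the factor of the osmotic stress response, was lower (-2.16 ± 0.24 log2 units (adjusted p = 1.15e-05)). At its other probes Nfat5 gave -1.10 and -0.95, both past the threshold. For Nfatc3, which encodes an NFAT factor that calcineurin activates, the brightest probe was higher (1.19), but 2 of its other probes were lower (-0.73 and -0.69), all past the threshold, so no direction can be given for the gene.

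More immediate early genes were lower than higher in the mutant cells. Of 29 detected, 13 were lower and 3 higher, where 22.1% and 21.1% of all genes were (median -0.44, with 10 lower and 6 higher in the values as deposited). Egr3, a zinc finger factor induced by antigen receptor signals, read 9.18, 9.56 and 10.31 on the mutant arrays against 12.52, 11.87 and 11.90 on the wild-type arrays. The mutant arrays spread over more than 1 log2 unit, all below the wild-type arrays, and the difference was -2.41 ± 0.35 log2 units (adjusted p = 1.02e-04). A second, dim Egr3 probe gave 0.06. Egr2 differed by -2.32 ± 0.33 log2 units (adjusted p = 9.01e-05). Rgs1, which curbs chemokine receptor signalling, differed by -1.91 ± 0.28 log2 units (adjusted p = 1.26e-04). Egr1 read 11.41, 13.00 and 13.15 on the mutant arrays against 13.88, 13.47 and 13.46 on the wild-type arrays. Its mutant replicate 1 was lowest by far, and the difference was -1.09 ± 0.42 log2 units (adjusted p = 0.0515), just over the threshold. Without mutant replicate 1 it was -0.53 (adjusted p = 0.238). Egr1 passed under 11 of the 24 alternatives.

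Myc and most measured genes of ribosome biogenesis were lower with mutant E12. Myc, the growth factor-induced transcription factor, read 6.60, 7.05 and 7.23 on the mutant arrays against 8.46, 8.28 and 8.36 on the wild-type arrays. The wild-type arrays lay within 0.2 log2 units of each other, above the spread-out mutant arrays, and the difference was -1.41 ± 0.22 log2 units (adjusted p = 1.83e-04). Some of its antagonists, of the MXD family, were higher. Mxd4 read 10.14, 10.96 and 10.51 on the mutant arrays against 8.89, 8.78 and 8.76 on the wild-type arrays, with every mutant array higher and a difference of 1.73 ± 0.18 log2 units (adjusted p = 7.33e-06). Mxd3 (0.81) and Mxi1 (0.49) were also higher, and each was above the limit of detection on 1 of 3 wild-type arrays. The call of Mxd3 was lost when wild-type anti-IgM replicate 1 (0.69, adjusted p = 0.0743) or 2 (0.75, 0.0622) or mutant anti-IgM replicate 1 (0.63, 0.0727) was left out, and that of Mxi1 with 75th percentile scaling (0.30, 0.0732). Mxd1 did not pass (-0.19, adjusted p = 0.230). Over the 11 detected genes of the MYC and MAX network, 3 were higher and 2 lower, with a median of -0.02.

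Of 27 genes of ribosome biogenesis, 24 were lower and 0 higher by limma (0 higher at an unadjusted p under 0.05), where 22.1% of all genes were lower. All 27 differences were negative, and the median was -1.05 against -0.01 over all genes. The direction held in the values as deposited (12 lower, 0 higher, median -0.37) and with 75th percentile scaling (25 lower, 0 higher, median -0.88). Nop56, a core protein of box C/D small nucleolar ribonucleoproteins, read 10.27, 9.73 and 10.26 on the mutant arrays against 11.61, 11.69 and 11.69 on the wild-type arrays. The wild-type arrays were nearly equal and far above the mutant arrays, by -1.57 ± 0.18 log2 units (adjusted p = 1.27e-05). Its partner Nop58 differed by -1.59 ± 0.20 log2 units (adjusted p = 2.94e-05), Rrp12, an export factor of pre-ribosomes, by -1.64 ± 0.13 log2 units (adjusted p = 7.73e-07), and Ddx21, a nucleolar helicase, by -1.53 ± 0.16 log2 units (adjusted p = 8.20e-06). Nop2, a methyltransferase of ribosomal RNA, was at -1.47 (adjusted p = 1.86e-05).

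In untreated cells the same 27 genes had a median difference of -0.01, with 3 lower and 3 higher. The interaction, the test of whether the form difference changed with anti-IgM, passed for 17 of 27, all negative, against 6.28% of all genes. As the plot of group medians shows, the wild-type arrays after anti-IgM held the high value.

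**Figure D3:**
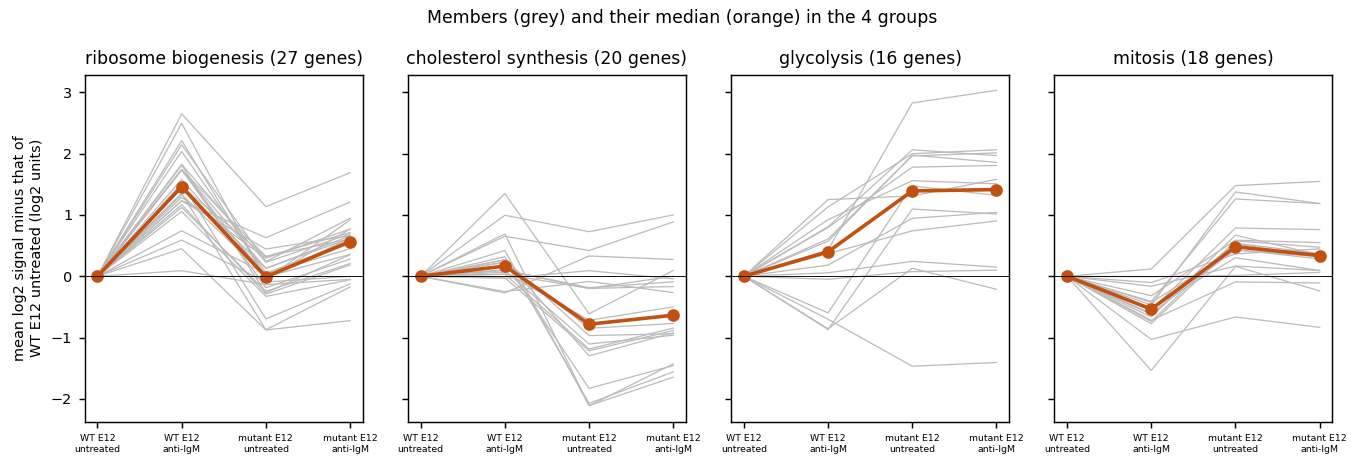
Mean log2 level of each detected member (grey lines) and the group median (orange) in the 4 groups, as the difference from untreated wild-type cells in log2 units, for ribosome biogenesis, cholesterol synthesis, glycolysis and mitosis genes. The ribosome median is highest in wild-type E12 with anti-IgM, cholesterol and glycolysis genes separate by E12 form, and the mitosis median is lowest in wild-type E12 with anti-IgM.

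NF-κB genes gave 13 lower and 3 higher of 24, where 22.1% and 21.1% of all genes were lower and higher (median -0.42). With the values as deposited the calls were even, at 7 lower and 8 higher, with a median of -0.24. Nfkbie, an inhibitor of NF-κB that NF-κB itself induces, read 8.79, 8.85 and 8.90 on the mutant arrays against 10.77, 10.46 and 10.51 on the wild-type arrays. Its groups were tight and apart, by -1.73 ± 0.12 log2 units (adjusted p = 2.21e-07). Rel, the c-Rel subunit, differed by -1.51 ± 0.13 log2 units (adjusted p = 1.42e-06). The survival gene Bcl2a1d (-1.40) and the activation marker Cd83 (-1.30) were also lower, and Cd83 did not pass in the values as deposited (-0.35, adjusted p = 0.131). Bcl2a1d and Bcl2a1b (-1.16) are near-identical copies whose probes may cross-read, and the latter did not pass in the values as deposited (-0.33).

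Cytokine, chemokine and homing genes split into 13 lower and 9 higher of 26 (median -0.43). Plau, which encodes urokinase, read 6.28, 6.38 and 6.35 on the mutant arrays against 9.12, 8.74 and 8.38 on the wild-type arrays. The mutant arrays lay far below the wild-type arrays and within 0.6 log2 units of the untreated arrays of both forms, and the difference was -2.41 ± 0.15 log2 units (adjusted p = 1.74e-07). Csf1, the macrophage growth factor, read 5.67, 6.29 and 6.39 on the mutant arrays against 8.46, 8.06 and 7.97 on the wild-type arrays, with a difference of -2.05 ± 0.19 log2 units (adjusted p = 3.21e-06). It was above the limit of detection on 2 of 3 mutant arrays, so its difference is compressed. Ltb, which encodes lymphotoxin beta, was higher, at 10.42, 10.29 and 9.46 on the mutant arrays against 6.86, 7.81 and 7.99 on the wild-type arrays. Both groups were spread over about 1 log2 unit without overlap, and the difference was 2.50 ± 0.48 log2 units (adjusted p = 8.59e-04).

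B cell transcription factors gave 7 higher and 11 lower of 27 (median -0.27), which turned to 12 higher and 7 lower in the values as deposited. Irf4, which antigen receptor signals induce and which drives plasma cell and class switch programmes, read 10.37, 11.17 and 10.67 on the mutant arrays against 12.34, 11.99 and 11.79 on the wild-type arrays. All wild-type arrays were above all mutant arrays, by -1.30 ± 0.29 log2 units (adjusted p = 0.00246). In the values as deposited the Irf4 difference was -0.50 (adjusted p = 0.161). Fli1, an ETS factor, was higher (1.32 ± 0.15 log2 units (adjusted p = 1.23e-05)), and Foxp1 was lower (-1.28 ± 0.19 log2 units (adjusted p = 1.48e-04)).

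Genes of mitosis were mostly higher with mutant E12. Of 18 detected, 15 were higher and 0 lower by limma (0 lower at an unadjusted p under 0.05), where 21.1% of all genes were higher, with a median of 0.94 and 13 to 16 higher in the other scalings. Plk1, a kinase of mitotic entry and exit, read 10.58, 10.71 and 10.88 on the mutant arrays against 9.01, 9.11 and 9.10 on the wild-type arrays. The groups were tight and did not overlap, with a difference of 1.65 ± 0.13 log2 units (adjusted p = 1.06e-06). Birc5, which encodes survivin (1.59), Cdc20, an activator of the anaphase-promoting complex (1.43), and Aurka, a spindle kinase (1.31), were higher too. The mitosis median was 0.48 in untreated cells.

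The G1 and quiescence group gave 14 higher and 6 lower of 31 (median 0.27, with 10 higher and 8 lower at 75th percentile scaling). Beside Txnip, E2f2, an activating E2F, read 10.25, 10.66 and 10.46 on the mutant arrays against 8.78, 8.96 and 8.86 on the wild-type arrays. Mutant arrays were all higher, by 1.59 ± 0.14 log2 units (adjusted p = 2.31e-06), and its other probes gave 1.74 and, at a dim one, 0.26. Cdkn2c, the inhibitor p18 of the G1 kinases, was higher (1.24 ± 0.13 log2 units (adjusted p = 9.87e-06)), while Btg1, an antiproliferative gene, was lower (-2.00 ± 0.21 log2 units (adjusted p = 7.66e-06)). E2f2 and Cdkn2c, an activator and an inhibitor of the cycle, were thus both higher.

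Most measured genes of energy metabolism differed, where 43.2% of all genes did. In glycolysis, 11 of 16 genes were higher and 1 lower, against 21.1% and 22.1% of all genes, with a median of 0.90 and 11 to 13 higher in the other scalings. The list does not hold the enolase gene Eno2, which was lower (-2.64) and is not in these counts. Tpi1, triosephosphate isomerase, read 14.30, 13.75 and 13.98 on the mutant arrays against 11.49, 11.39 and 11.35 on the wild-type arrays. No mutant array came within 2 log2 units of a wild-type array, and the difference was 2.60 ± 0.17 log2 units (adjusted p = 1.89e-07). Pdk1, which keeps pyruvate out of mitochondria, differed by 1.91 ± 0.13 log2 units (adjusted p = 2.03e-07), Aldoc by 1.88 and Pgk1 by 1.40. The other, dim probes of Pdk1 (0.65) and Pgk1 (0.42) also passed. The group was further apart in untreated cells, with a median of 1.39, and 5 members had a negative interaction, with 0 positive by limma (4 positive at an unadjusted p under 0.05).

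Of 23 genes of oxidative phosphorylation, 12 were higher and 2 lower, to be read against the same shares (median 0.39, 1.22 in the values as deposited). The named members were subunits of complexes I and II: Ndufv1 (1.06), Sdhc (0.95), Ndufb8 (0.89) and Ndufv2 (0.79), each past the threshold at its brightest probe. The other Ndufb8 probe gave -0.03 (adjusted p = 0.864).

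More genes of cholesterol synthesis were lower than higher with mutant E12. Of 20 detected genes, 11 were lower and 1 higher, where 22.1% and 21.1% of all genes were, with a median of -0.87 (-0.42 and 8 lower in the values as deposited). Hsd17b7, an enzyme of late sterol synthesis, read 8.34, 8.50 and 8.92 on the mutant arrays against 10.87, 10.59 and 10.65 on the wild-type arrays. Its groups did not overlap and differed by -2.12 ± 0.15 log2 units (adjusted p = 3.88e-07), and by -0.43 at its other, dim probe, past the threshold. Sqle, squalene epoxidase, differed by -1.68 ± 0.14 log2 units (adjusted p = 1.12e-06), Msmo1 by -1.88 and Lss, lanosterol synthase, by -2.06 at its brightest probe and 0.21 at a dim second one. The group's median was -0.78 in untreated cells, and 0 of 20 members passed the interaction test by limma, with 1 at an unadjusted p under 0.05.

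**Figure D4:**
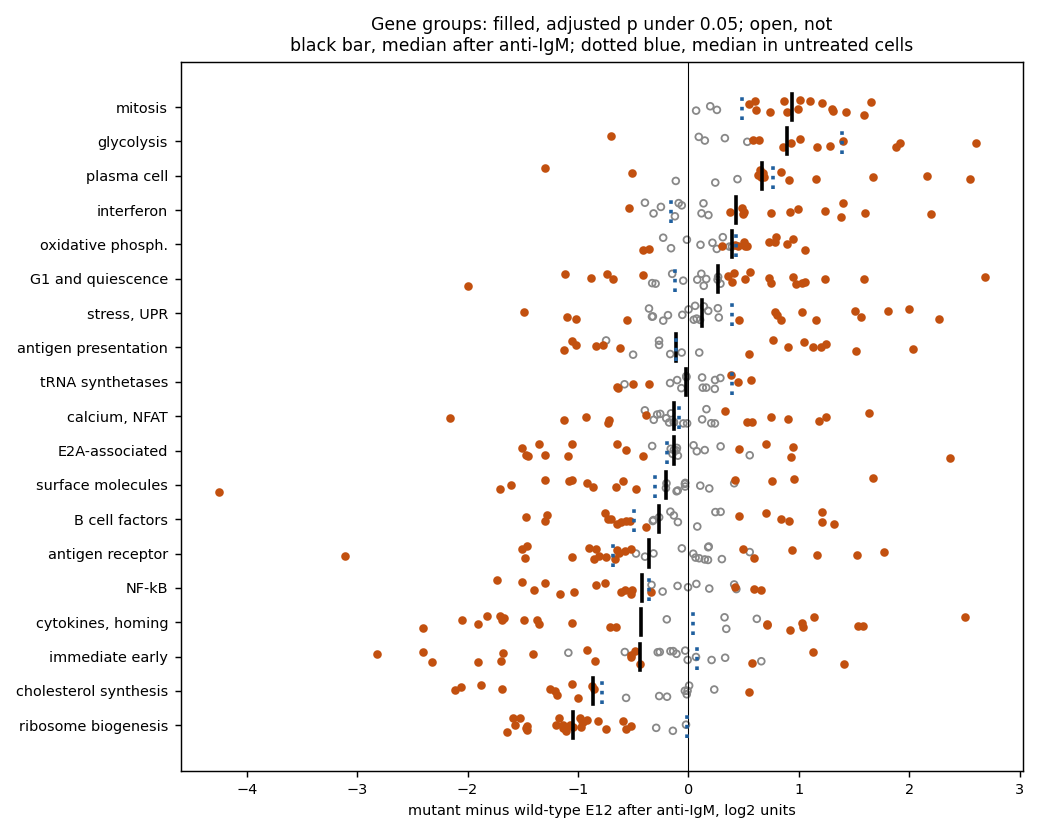
Difference between mutant and wild-type E12 after anti-IgM, in log2 units, for each detected member of 19 gene groups, with filled points past the adjusted threshold and open points not, a black bar for the group median after anti-IgM and a dotted blue bar for the median in untreated cells. Ribosome biogenesis and cholesterol synthesis lie furthest left and mitosis and glycolysis furthest right.

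Of 16 plasma cell genes, 11 were higher and 2 lower, where 21.1% and 22.1% of all genes were (median 0.66, 9 to 11 higher in the other scalings). Fkbp11, a peptidyl-prolyl isomerase of the secretory pathway, read 10.36, 10.71 and 10.27 on the mutant arrays against 7.99, 7.80 and 7.89 on the wild-type arrays. All mutant arrays were far above the wild-type arrays, by 2.55 ± 0.18 log2 units (adjusted p = 3.23e-07). Sec61b, a subunit of the translocon, differed by 2.16 ± 0.15 log2 units (adjusted p = 2.21e-07), and Mzb1, a chaperone of IgM assembly, by 1.67 ± 0.11 log2 units (adjusted p = 2.51e-07). Irf4, described above, was 1 of the 2 lower members.

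The stress group, which holds the unfolded protein and amino acid responses, gave 11 higher and 4 lower of 30 (median 0.12). Sdf2l1, an endoplasmic reticulum chaperone partner, read 11.32, 11.53 and 11.13 on the mutant arrays against 9.14, 8.97 and 9.05 on the wild-type arrays. The groups were tight and apart, by 2.27 ± 0.13 log2 units (adjusted p = 1.12e-07). Creld2 (1.99), Sel1l, of protein disposal (1.81, 0.38 to 1.30 at its other probes), and Asns, asparagine synthetase (1.56), were higher. The tRNA synthetases gave 3 higher and 4 lower of 19, with a median of -0.02, against 10 higher and 1 lower in the values as deposited. Eprs (-0.65, with -0.43 and 0.06 at its other probes), Rars (-0.64) and Farsb (-0.50) were lower. Sars was higher (0.56, -0.20 at its other probe). Eprs and Rars lost their calls in the values as deposited (-0.23 and -0.02), and Sars lost its call in 12 of the 24 alternatives, among them 75th percentile scaling, a replicate block (adjusted p = 0.0530) and 7 single arrays left out. Farsb turned positive in the values as deposited (0.33, adjusted p = 0.0679) and did not pass with 75th percentile scaling (-0.19).

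Antigen presentation held both directions, with 9 higher and 6 lower of 22 (median -0.11, 0.82 in the values as deposited and 0.29 with 75th percentile scaling). The 4 members named by rule all serve class I presentation and were higher. Psmb9, a subunit of the immunoproteasome, read 12.04, 11.42 and 11.45 on the mutant arrays against 9.60, 9.61 and 9.59 on the wild-type arrays. Its groups did not overlap and differed by 2.04 ± 0.18 log2 units (adjusted p = 1.85e-06). Tap1, a peptide transporter, differed by 1.52, H2-K1, a class I heavy chain, by 1.25, and Tapbp by 1.20. H2-K1 is one of several near-identical class I genes, so its probe may read others. The class II genes and their activator were chosen for mention after their values were seen: Ciita (-1.12), H2-Aa (-1.05) and H2-Eb1 (-0.78) were lower, and H2-Ab1 (-0.27) and Cd74 (-0.27) did not pass.

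Interferon response genes gave 12 higher and 1 lower of 22 (median 0.43, with 7 higher and 4 lower at 75th percentile scaling). Isg20, an exonuclease, read 8.98, 8.98 and 8.79 on the mutant arrays against 6.80, 6.73 and 6.63 on the wild-type arrays. The groups were tight, the mutant higher, by 2.20 ± 0.14 log2 units (adjusted p = 1.89e-07). The GTPase genes Gbp2 (1.60) and Igtp (1.38) and the membrane protein gene Bst2 (1.40) were higher.

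Of 25 surface molecules, 11 were lower and 4 higher (median -0.20). Beside Cd63 the lower ones included Cd53, another tetraspanin (-1.61 ± 0.13 log2 units (adjusted p = 1.18e-06)), and Fcer2a, the low-affinity IgE receptor CD23, which read 10.03, 9.85 and 10.05 on the mutant arrays against 11.19, 11.81 and 12.06 on the wild-type arrays. The Fcer2a groups did not overlap and differed by -1.71 ± 0.28 log2 units (adjusted p = 2.70e-04). The other Cd53 probe gave -0.67, past the threshold. Fcrla, an intracellular Fc receptor-like protein, was higher (1.67 ± 0.18 log2 units (adjusted p = 1.03e-05)). Of 23 genes of apoptosis and survival, 6 were higher and 6 lower, among them Pim1, a survival kinase (1.26, 0.18 at its other probe), and Casp4 (-1.02). Among DNA repair genes of class switching, 1 of 17 was higher (Xrcc6, 0.59, with -0.27 and 0.27 at its other probes, neither past the threshold). The 2 lower ones were Apex1 (-0.69) and Trp53bp1 (-0.52, with -0.85, past the threshold, and 0.25, not past it, at its other probes). Apex1 lost its call in 12 of the 24 alternatives, among them the values as deposited (-0.34) and 8 single arrays left out, and fell to -0.45 without mutant anti-IgM replicate 2 (adjusted p = 0.198). Trp53bp1 lost its call in the values as deposited (-0.21) and without wild-type or mutant anti-IgM replicate 1 (-0.47 in both). Of 4 detected immunoglobulin-related genes, Vpreb3 was the 1 that passed.

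Some markers of other cells differed between the forms, to be read against 21.1% higher and 22.1% lower of all genes. Myeloid markers gave 4 lower and 1 higher of 8 detected of 16 listed, and their summed linear signal ranged from 548 to 845 on the mutant arrays and from 862 to 1221 on the wild-type arrays. Lyz1 (-1.69), Lyz2 (-1.25, above the limit on 1 of 3 mutant arrays, and not past the threshold without wild-type anti-IgM replicate 1) and Fcer1g (-1.23) were lower and Mpeg1 was higher (2.02), while Csf1r, Itgam, Mpo and Elane were below the limit of detection. Among T cell markers, 2 were higher (Thy1, 1.18, and Cd8b1, 0.76) and 1 lower (Lat, -0.59) of 5 detected of 13, with sums of 1548 to 2253 and 974 to 1134, and Cd3d, Cd3e, Cd3g, Cd4 and Cd8a were below the limit. The groups overlapped in Cd8b1, which lost its call in 8 of the 24 alternatives and was at 0.48 without mutant anti-IgM replicate 2 (adjusted p = 0.186). In bulk RNA, fewer cells of a type and less RNA per cell cannot be told apart.

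Dendritic cell markers gave 4 higher and 1 lower of 6 detected of 10, with sums of 5788 to 9187 on the mutant arrays and 2344 to 2602 on the wild-type arrays. The higher ones were Batf3 (1.69), Ly6d (1.62), Bst2 and Xcr1, of which B cells also express Ly6d and Bst2. Xcr1 was above the limit on 0 of 3 wild-type arrays and was at least 1.23-fold higher with mutant E12, while Itgax, Flt3, Clec9a and Cd209a were below the limit. Prf1 (-0.48, adjusted p = 0.335) and Nkg7 (-0.02) were the detected NK cell markers, and 0 of 2 passed by limma (0 at an unadjusted p under 0.05). Prf1 passed without mutant anti-IgM replicate 1 (-1.04, adjusted p = 0.00680) and with array weights (-0.84, 0.00830), and its other probe gave 0.07. Of the 2 detected stromal and endothelial markers, Pecam1 was higher (0.84, with -0.03 and 0.12 at its other probes), and Col1a1, Col3a1 and Cdh5 were below the limit. Of 4 detected erythroid markers, 0 passed by limma (0 at an unadjusted p under 0.05). B cell markers summed to 55923 to 58532 and 66467 to 68598. The part of other cells in the gene group results was not tested.

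Most genes called after anti-IgM were also called without it. In untreated cells 4320 genes (43.0%) differed between the forms, 2073 (20.6%) higher and 2247 (22.4%) lower. Of the 2123 genes higher after anti-IgM, 1412 were also higher in untreated cells, which is 66.5% of the former and 68.1% of those higher without treatment. Of the 2222 lower genes, 1402 were also lower untreated (63.1% of the former, 62.4% of the latter). Opposite and past the threshold were 36 and 30 genes. The interaction passed for 631 genes (6.28%), 320 positive (3.18%) and 311 negative (3.09%), and 2148 (21.4%) were at an unadjusted p under 0.05. The count of 631 ranged from 310 to 1907 over the alternatives, and it was 1163 with the replicate number as a block within E12 form.

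Among genes higher after anti-IgM, 170 passed the interaction test, and in 153 of them the difference was wider with anti-IgM. Among lower genes 288 passed, and in 232 the difference was wider. Of these, 85 of the 170 and 155 of the 288 did not pass in untreated cells. The genes were selected by the difference after anti-IgM, which is also part of the interaction. That selection favours wider differences, so these counts do not show that differences widened in general. Plau had the largest negative interaction among the named genes. Untreated, it read 6.08, 5.96 and 5.88 with mutant and 5.85, 5.91 and 5.99 with wild-type E12, which overlap, at a difference of 0.05, and the interaction was -2.46 (adjusted p = 1.88e-04). Csf1 (0.05 untreated, interaction -2.10), Rgs1 (-0.02, -1.89), Gfi1 (-0.08, -1.37), Myc (0.16, -1.56) and Nop58 (-0.03, -1.56) likewise had untreated differences that did not pass.

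On the higher side, E2f2 went from -0.28 untreated to 1.59 (interaction adjusted p = 3.96e-04), Mxd4 from 0.06 to 1.73 (0.00322) and Gbp2 from -0.07 to 1.60 (0.0184), each at its brightest probe. The other Mxd4 probes already differed by 0.81 and 0.83 untreated, with interactions of 0.73 and 0.37 that did not pass (adjusted p = 0.207 and 0.528), and the other Gbp2 probe gave 0.95 untreated and an interaction of 0.23 (0.835). At their brightest probes Cd63 and Dusp2 differed in both states and more so with anti-IgM, with interactions of -1.65 (adjusted p = 0.00517) and -1.85 (0.00229). The other Dusp2 probe gave -0.02 untreated, -1.53 after anti-IgM and an interaction of -1.50 (0.00231). The Ccdc144b difference was smaller with anti-IgM, going from -4.22 to -2.84 (0.00486). Its wild-type mean was 10.58 untreated and 8.97 after anti-IgM, and its mutant mean 6.37 and 6.13. Only 1 of 3 mutant arrays after anti-IgM was above the limit of detection, so that difference is compressed. By contrast Cd72 differed by -3.09 untreated and Tg by 3.00, and their interactions, -0.02 and 0.02, did not pass (adjusted p = 0.989 and 0.980).

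**Figure D5:**
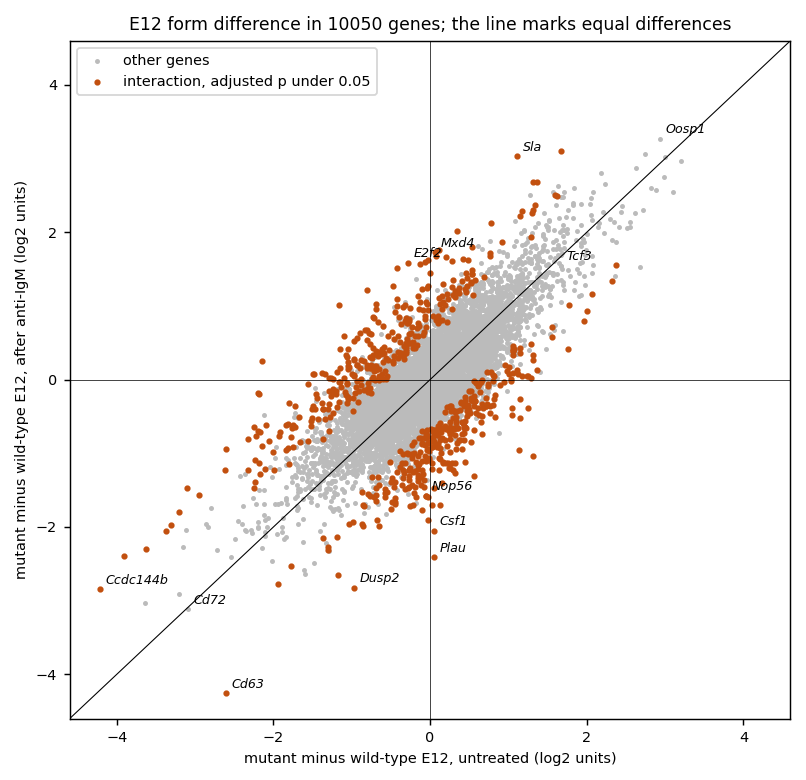
Difference between mutant and wild-type E12 in untreated cells (horizontal axis) and after anti-IgM (vertical axis), both in log2 units, for 10050 genes, with orange points for the 631 genes that passed the interaction test and a line where both differences are equal. Plau, Csf1 and Nop56 lie near 0 on the horizontal axis and below 0 on the vertical axis, E2f2 and Mxd4 lie above it, and Cd72 lies on the line.

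The promoters gave a sequence view of the same groups. The 250 bases before the start were searched on both strands in the 6537 of 10050 genes with 1 RefSeq promoter. CACGTG was in 8.52% of all of them, in 11.8% of the genes lower after anti-IgM, in 5.63% of the higher genes, in 16.9% (27 of 160) of the genes that were lower and had a negative interaction, and in 9.68% (9 of 93) of those that were higher and had a positive one. Of 21 ribosome biogenesis genes it was in 1, Nop2. The E-box form that E2A proteins favour, CAGGTG or CACCTG, was in 952 of all 6537 promoters, in 224 of the 1402 of higher genes and in 216 of the 1469 of lower genes. CAGCTG was in 10.8%, 9.99% and 10.1%. ACGTG or CACGT, which overlaps CACGTG, was in 22.3% of all, 21.0% of the higher and 24.4% of the lower genes, and in 4 of the 8 glycolysis genes that could be searched. These shares are given without a test, and a window without a motif says nothing about a factor's binding elsewhere.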

How the data were processed

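RNA was measured on Illumina bead arrays. The deposited values used here are probe intensity values. They reach below 0, so a background had been taken off by the authors, and they are linear and normalized, with a different median in the 6 wild-type and in the 6 mutant arrays. How this was done is not given in the sources used here. Another table holds 12 columns whose names fit no sample label, and these were not used.

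For this comparison the quantiles of the 12 arrays were equalized jointly before the transform log2(value + 50). The offset of 50 shrinks differences of dim probes, and the joint step removes a shift of most genes between the forms. The detection limit of an array was 2.33 times the root mean square of its negative values (p 0.01 for normal noise), and probes above it on 3 or more of the 12 arrays were kept: 19715 of 45281, of which 16267 had 1 gene symbol. In the whole annotation, 34885 probes name 1 symbol, 18 name several and 10378 name none. A mean per group was fitted to all 12 arrays with limma 3.58.1 in R 4.3.3 (lmFit and eBayes, two-sided), with 8 residual degrees of freedom and 5.98 from the prior. The procedure was tested on simulated data. The number of arrays limits the precision: with 3 against 3, an exact permutation test of 1 gene cannot go below 0.1.

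Replicate numbers did not pair the forms: deviations of same-numbered treated arrays correlated at -0.0577 to 0.0279. The genes named are Tcf3, the 12 largest differences of each sign without overlap of the groups, the largest of each list past the threshold (at most 4, or the 2 of smallest p), and some given by name. Clone-like symbols (Rik, Gm, LOC or accession-like) were left out before the 12 of each sign were taken. The 31 lists, 7 of them cell type markers, hold 670 genes, of which 522 were tested. The members and lists were chosen with earlier results of these data known. Alternatives were the values as deposited, 75th percentile scaling, the treated arrays alone, offsets of 16 and 100, no filter, detection on all 12 arrays, 1 probe per gene, array weights, replicate blocks, a trended robust prior and leaving out each array. Promoters and miRNAs are from RefSeq (GRCm38.p6), and probe positions were not used.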

Additional observations from a re-analysis of the deposited data

Results flagged for a closer look

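The form difference changed with anti-IgM in 35 of the 127 named genes, by the interaction term of the limma fit at adjusted p under 0.05. The values are the difference after anti-IgM minus the difference in untreated cells, in log2 units, and 6.28% of all genes passed this test. Most named genes were chosen for a large difference after anti-IgM, which is itself part of the interaction. The 35 of 127 can therefore not be set against the 6.28%. Signalling, secreted and surface gene values were negative for Plau (-2.46), Csf1 (-2.10), Rgs1 (-1.89), Dusp2 (-1.85) and Cd63 (-1.65). Transcription regulators with negative values were Irf4 (-1.86), Myc (-1.56), Gfi1 (-1.37) and Ppargc1b (-1.49). Ribosome biogenesis contributed Nop58 (-1.56), Nop56 (-1.53) and Rrp12 (-0.95), and amino acid and tRNA charging genes contributed Eprs (-0.95), Rars (-0.89) and Asns (-0.81). Dpp7 (-0.83) and Myo1e (-0.75) were the other negative ones.

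Positive values were found for the antigen receptor and calcium genes Sla (1.92), Cd79b (0.80), Ppp3cc (1.21) and Nfatc3 (0.82) and for the B cell genes Fcrla (1.47), Vpreb3 (1.03) and Irf8 (0.77). Cycle and MYC antagonist genes were E2f2 (1.87), Mxd4 (1.66), Cdkn2c (0.80) and Txnip (1.37). The rest were Gbp2 (1.67), Gimap7 (1.32), Abi3 (1.43) and Ccdc144b (1.37), and 3 genes listed as markers of other cells, Mpeg1 (1.68), Ly6d (1.14) and Pecam1 (1.24). These values are those of each gene's brightest probe. Other probes were detected for 20 of the 35 genes. They all passed with the same sign in 8 genes, some did not in E2f2, Eprs and Pecam1, and none did in the other 9 (Abi3, Asns, Cdkn2c, Gbp2, Mxd4, Myo1e, Nfatc3, Ppp3cc and Sla).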

How the results depend on the processing

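The count of genes called after anti-IgM stayed within 1.5 times of 4345 under all 24 alternatives, at 3511 (without wild-type anti-IgM replicate 2) to 5278 (array weights). The replicate block gave 4346 (2125 higher, 2221 lower), a block within E12 form 4347, and among named genes the replicate block changed the calls of Egr1 (adjusted p = 0.0299) and Sars (0.0530) only. Across the forms the arrays share only a number, and not every treated array correlated best with its own number in the other form. Between untreated and treated arrays, same-numbered deviations correlated at 0.179 to 0.291 with wild-type E12 and at -0.0444 to 0.608 with mutant E12. The interaction count of 631 was 310 in the values as deposited, 318 with an offset of 16, 1907 with array weights and 1163 with a replicate block within E12 form, and it ranged from 317 (without wild-type anti-IgM replicate 1) to 732 (without mutant untreated replicate 3). It was also 333 and 355 without wild-type anti-IgM replicates 2 and 3, 357 without mutant untreated replicate 2 and 384 without mutant anti-IgM replicate 2. The cause was not tested. Tcf3 was 1.24 to 2.00 with an array left out and 2.27 in the values as deposited. Farsb reversed, to 0.33 in the values as deposited. Over 126 other named genes, 2938 of 3005 values kept direction and side of the threshold, 49 lost the call, 17 gained it and 1 reversed. Of 118 called genes, 102 were called in every alternative in which they were tested. Of 99 other probes of 64 named genes, 77 had the same sign and call. The treated arrays alone give no interaction. Signals near background limit the smallest differences.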
